A study of Mus musculus with 12 samples.

Results

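The genes of bone matrix that osteoblasts make were followed through the growth cartilage of the E15.5 mouse forelimb zeugopod, the segment that holds the radius and ulna. The 9 genes were taken by symbol from a table of 36186 gene rows. They are *Spp1*, *Ibsp*, *Dmp1* and *Mepe*, which encode small integrin-binding ligand, N-linked glycoproteins, and *Sp7*, *Ifitm5*, *Sparc*, *Bglap* and *Bglap2*. Each was measured by RNA-Seq in 12 libraries from tissue cut out by laser capture microdissection, 3 for each of 4 groups. WT (wild type) tissue was taken as resting, proliferative and hypertrophic compartments. The labels spell the last compartment hyperproliferative, and the study's methods call it hypertrophic. The fourth group came from *aadd* mutants, which carry frameshift mutations in *Hoxa9,10,11* and *Hoxd9,10,11*. All groups were E15.5 forelimb zeugopod on a mixed 129/CD-1 background. No compartments were separated in *aadd*. Each of its libraries holds chondrocytes of the whole element, which the labels enter as resting. Some perichondrium came with the captured chondrocytes. The mutations shift the reading frame, so transcript levels of the 6 Hox genes do not check the genotype. The labels do not say which embryos the libraries came from, and the P values below measure the spread between these libraries.

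In endochondral bone formation, chondrocytes stop dividing, enlarge and mineralise their matrix, and osteoblasts of the adjoining perichondrium lay down a bone collar. Blood vessels and osteoclasts then enter the hypertrophic zone, and bone replaces cartilage. *Sp7* (osterix) is a transcription factor that osteoblasts need to form. *Ibsp* (bone sialoprotein), *Spp1* (osteopontin), *Dmp1* and *Mepe* encode secreted phosphoproteins with an RGD motif, through which they bind integrins, and they act on crystal growth. Osteopontin is made by osteoblasts and hypertrophic chondrocytes and also by osteoclasts and macrophages. *Dmp1* and *Mepe* are best known from late osteoblasts and osteocytes, the cells buried in bone. *Bglap* and *Bglap2* encode osteocalcin, a late product of osteoblasts, *Ifitm5* encodes a small membrane protein of bone-forming osteoblasts, and *Sparc* (osteonectin) is a collagen-binding glycoprotein found in many matrices.

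Levels are given as NRPKM, the authors' normalised form of RPKM, which divides read counts by exon length and by the number of mapped reads. Such values can be compared between genes. How they were normalised between libraries is not given. Taking NRPKM to scale with mapped reads as RPKM does, the smallest steps in the values put each library at about 1888000 to 3238000 reads. A read on 1 kb of exon stands for 0.309 to 0.530 NRPKM. WT hypertrophic replicate 1 stood apart from the other hypertrophic libraries. Over all genes tested, its root mean square difference on the log2 scale was 1.11 from replicate 2 and 1.04 from replicate 3, which differed from each other by 0.613. Its difference from the mean of the proliferative libraries was 0.712. Values without it are therefore given beside the main results that rest on the hypertrophic group. In whole pieces of tissue, fewer cells of a type and less RNA per cell cannot be told apart.

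The genes fell into 3 patterns. *Ibsp*, *Sp7* and *Ifitm5* were high in the proliferative compartment and in all 3 hypertrophic libraries. *Spp1*, *Dmp1* and *Mepe* were high in hypertrophic replicates 2 and 3 and far lower in replicate 1. *Sparc* was high in every library. In *aadd* none of the 6 genes tested differed from WT resting tissue by the criteria given below.

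**Figure D1:**
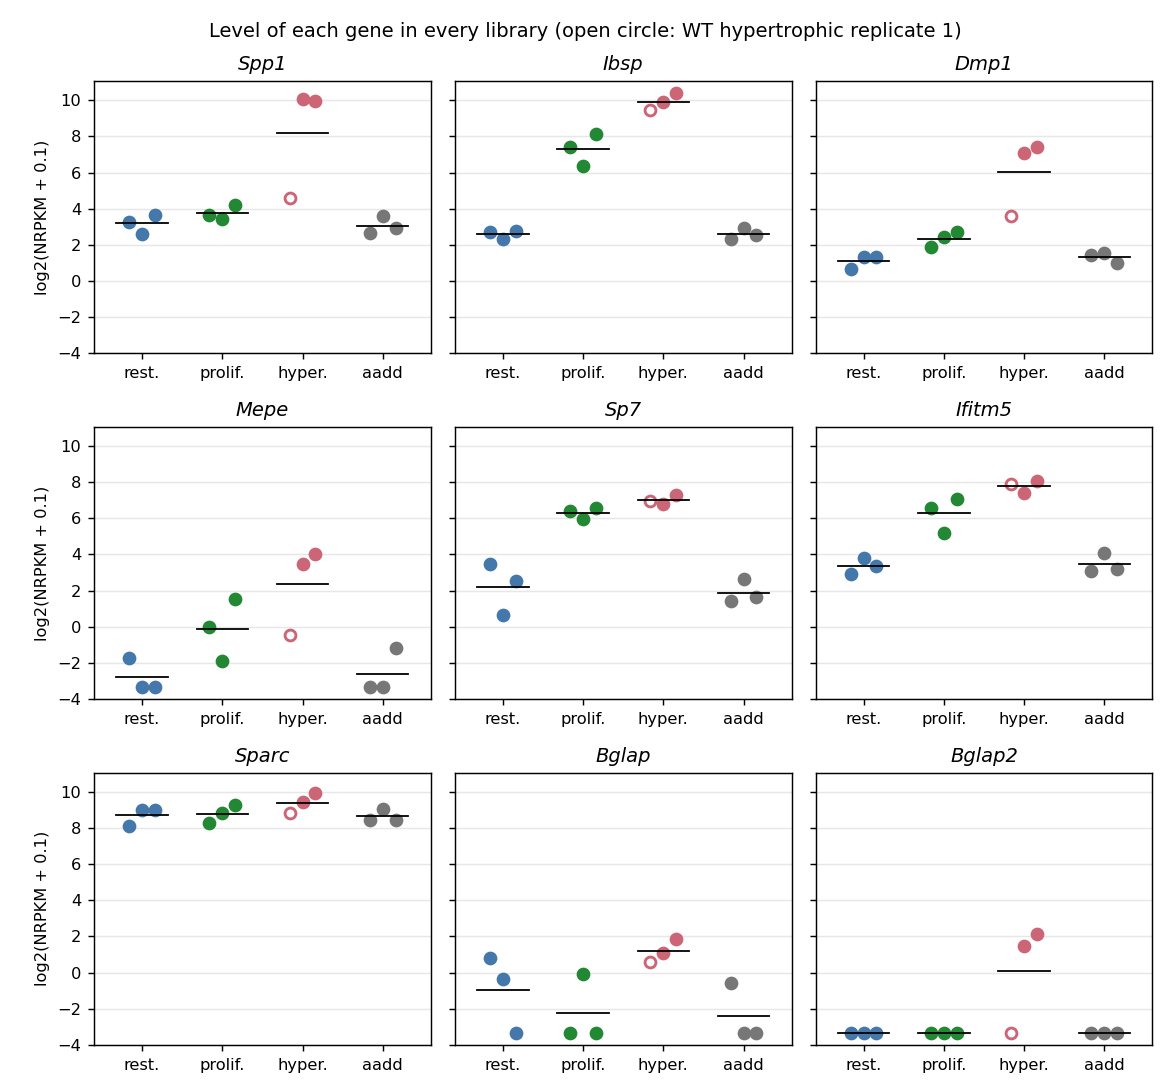
Level of each of the 9 genes in the 12 libraries, as log2(NRPKM + 0.1), with 3 points for each group and a bar at the mean of the log2 values. The open circle is WT hypertrophic replicate 1, which lies with replicates 2 and 3 for *Sp7* and *Ifitm5* and with the proliferative libraries for *Spp1* (24.1 against 1083 and 979 NRPKM).

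Of the genes tested, *Ibsp* had the largest difference across the WT compartments. Its level was 6.33, 4.99 and 6.60 NRPKM in the 3 resting libraries, 170, 82.2 and 278 in the proliferative libraries, and 718, 968 and 1331 in the hypertrophic libraries. The 3 groups did not overlap. Over all genes tested, 24% had no overlap between proliferative and resting, 24.2% between hypertrophic and proliferative and 32% between hypertrophic and resting libraries. *Sp7*, the transcription factor, was measured at 10.9, 1.46 and 5.64 NRPKM in resting, 85.3, 61.7 and 93.2 in proliferative and 126, 112 and 154 in hypertrophic libraries. Its 3 compartments did not overlap either, but the last step was small. *Ifitm5* was at 7.57, 13.6 and 10.1 NRPKM in resting, 94.5, 37.0 and 133 in proliferative and 240, 171 and 263 in hypertrophic libraries. The same proliferative library, replicate 2, was the lowest of its group for all 3 genes.

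*Spp1* behaved differently. It was at 9.61, 6.04 and 12.5 NRPKM in resting libraries and at 12.5, 10.7 and 18.3 in proliferative libraries, and these ranges overlapped. Hypertrophic replicate 1 held 24.1 NRPKM, and replicates 2 and 3 held 1083 and 979. In replicate 2 osteopontin was the highest of the 9 genes, above *Ibsp*. *Dmp1* was at 1.47, 2.41 and 2.41 NRPKM in resting, 3.56, 5.30 and 6.33 in proliferative and 12.2, 134 and 171 in hypertrophic libraries. All hypertrophic libraries lay above all proliferative ones, as for 13.3% of all genes tested, with replicate 1 nearest to them.

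*Mepe* was scarce. In resting tissue it was at 0.201 NRPKM in replicate 1, which is 1 read, and at 0 in the other two libraries. The proliferative libraries held 0.908, 0.168 and 2.83 NRPKM, and the hypertrophic libraries held 0.636, 11.2 and 16.2. Hypertrophic replicates 2 and 3 were the highest of the 12 libraries, while replicate 1 lay inside the proliferative range. Summed over 3 libraries, about 144 reads fell on *Mepe* in hypertrophic, 14 in proliferative, 1 in resting and 2 in *aadd* tissue. The rate of reads was 7.72 times higher in hypertrophic than in proliferative tissue, with an exact 95% interval of 4.46 to 14.5 that covers counting error only. Against resting tissue the ratio was 133 (interval 23.5 to 5300). Without hypertrophic replicate 1 these ratios were 10.5 (6.04 to 19.6) and 181 (31.9 to 7190).

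Osteocalcin transcripts were near the limit of detection. *Bglap* was at 1.63, 0.667 and 0 NRPKM in resting, 0, 0.838 and 0 in proliferative, 1.40, 1.98 and 3.54 in hypertrophic and 0.576, 0 and 0 in *aadd* libraries, and no library held more than about 6.52 reads. The hypertrophic rate was 2.78 times the resting rate, with a counting interval of 0.841 to 11.8 that includes equality (3.18 times, 0.918 to 13.9, without hypertrophic replicate 1). *Bglap2* reached 2.62 and 4.28 NRPKM in hypertrophic replicates 2 and 3, about 4 and 6 reads, and was listed at 0 in the other 10 libraries. The limit that a count of 0 allows was taken as 3 reads over the whole resting group. The observed hypertrophic rate of *Bglap2* was 3.08 times that limit, and 4.24 times without hypertrophic replicate 1. These ratios leave out the counting error of the hypertrophic reads and are not lower bounds. The values of both genes are uncertain for a further reason. Reads that aligned to several positions were removed, and of all stretches of 50 bases in the transcripts, 74.7% in *Bglap* and 88.2% in *Bglap2* also occur in another gene of the osteocalcin cluster. No such stretch was shared with a gene at another locus in the other 7 genes. The starts of both coding sequences are shown to make this plain, bases 1 to 120 of 285, from GENCODE transcripts on GRCm38, with the bases that differ between the genes in capitals.
Bglap: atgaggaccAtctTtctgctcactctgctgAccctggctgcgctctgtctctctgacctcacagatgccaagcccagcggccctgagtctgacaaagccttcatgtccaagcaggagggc
Bglap2: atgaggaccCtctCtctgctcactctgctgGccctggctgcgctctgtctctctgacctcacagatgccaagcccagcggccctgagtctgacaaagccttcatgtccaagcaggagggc
The coding sequences differ at 4 bases, 3 of them in the stretch shown, and are 98.6% identical.

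*Sparc* had the highest level of the 9 genes in all resting, proliferative and *aadd* libraries. It was at 281, 517 and 504 NRPKM in resting, 310, 458 and 613 in proliferative, 449, 681 and 971 in hypertrophic and 346, 523 and 353 in *aadd* libraries. The ranges of the 4 groups overlapped, and no comparison of *Sparc* over 3 libraries a group passed.

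The tests were limma moderated comparisons across 10936 genes that reached 5 NRPKM in at least 3 libraries. A gene passed at an unadjusted P of 0.05 or less with a fold change of at least 2, and the P adjusted over all genes tested is given beside it. *Spp1*, *Ibsp*, *Dmp1*, *Sp7*, *Ifitm5* and *Sparc* were tested. *Dmp1* reached the minimum only with the hypertrophic libraries counted, so its place in comparisons without them rests on that group. For *Dmp1*, a difference from the hypertrophic group was thus nearly fixed by the filter, also in the F test below. Its part in the counts of genes passing is a description only. *Mepe*, *Bglap* and *Bglap2* did not reach the minimum, and their values above carry no such test. Over the 4 groups together, an F test with a fold change of at least 5 was passed by 5 of the 6 genes, beside 5.6% of all genes tested, and all 5 also had an adjusted P under 0.05 (13.8% of all genes did). The adjusted P of *Sparc* in that test was 0.370.

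From the resting to the proliferative compartment, 4 of the 6 genes rose, where 2.56% of all genes did. *Ibsp* rose by 4.70 on the log2 scale (SE 0.43, 26.1-fold, adjusted P = 0.0143). It was the only one of the 6 with an adjusted P under 0.05, as 0.622% of all genes had. *Sp7* rose by 4.10 (SE 0.68, unadjusted P = 0.000666, adjusted P = 0.0754) and *Ifitm5* by 2.92 (SE 0.49, unadjusted P = 0.000724, adjusted P = 0.0800). *Dmp1* rose by 1.23 (SE 0.29, unadjusted P = 0.00466, adjusted P = 0.138), and did not reach the fold change with a pseudocount of 1. With all 12 libraries in one limma fit *Dmp1* did not pass (unadjusted P = 0.149, adjusted P = 0.484). The difference for *Spp1* was 0.58 (SE 0.33, adjusted P = 0.416), and that for *Sparc* was 0.08 (SE 0.34). *Spp1* was higher in the proliferative library of each of the 3 numbered pairs, and with a replicate block its unadjusted P was 0.0207 (adjusted P = 0.194), but the difference stayed under the fold change required. The ratio of *Ibsp* to *Spp1* was 0.659, 0.825 and 0.526 in resting libraries and 13.6, 7.65 and 15.2 in proliferative libraries. The log2 ratio differed by 4.15 between these groups, with a two-sided exact permutation P of 0.1, the smallest that 3 libraries against 3 can give (adjusted P = 0.257 over 18 ratio comparisons).

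From the proliferative to the hypertrophic compartment, *Spp1*, *Ibsp*, *Dmp1* and *Ifitm5* passed in the direction of higher levels, 4 of 6 genes beside 5.32% of all genes. None had an adjusted P under 0.05, nor did any gene in this comparison (0%), although 2115 genes had an unadjusted P of 0.05 or less. *Ibsp* rose by a further 2.63 (SE 0.48, 6.20-fold, unadjusted P = 0.00138, adjusted P = 0.120). *Spp1* rose by 4.44 with an SE of 1.47 (unadjusted P = 0.0220, adjusted P = 0.206), and *Dmp1* by 3.70 with an SE of 1.002 (unadjusted P = 0.00946, adjusted P = 0.170). *Ifitm5* rose by 1.51 (SE 0.49, unadjusted P = 0.0207). For *Sp7* the difference was 0.71 (SE 0.23, unadjusted P = 0.0213), under the fold change required, and for *Sparc* it was 0.59 (SE 0.38). Only *Ibsp* and *Dmp1* passed when proliferative replicate 2 or hypertrophic replicate 3 was left out, and *Spp1* also missed the threshold without proliferative replicate 1 (log2 difference 4.38) or hypertrophic replicate 2 (3.50).

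Leaving out hypertrophic replicate 1 changed this comparison for *Spp1* and *Dmp1* more than for the others. The difference became 6.25 for *Spp1* (adjusted P = 0.00190, range over all alternatives 0.00190 to 0.536) and 4.91 for *Dmp1* (adjusted P = 0.00328, range 0.00328 to 0.50024). For *Ibsp* it became 2.85 (adjusted P = 0.0260, range 0.0124 to 0.449). *Ifitm5* then had a difference of 1.45 and no longer passed (unadjusted P = 0.0525), so that 3 of the 6 genes passed, each also with an adjusted P under 0.05. In the same fit 9.79% of all genes passed as higher and 17.4% had an adjusted P under 0.05. With the 2 remaining libraries the spread of the hypertrophic group rests on 2 values.

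Over the whole span from resting to hypertrophic tissue, *Spp1*, *Ibsp*, *Dmp1*, *Sp7* and *Ifitm5* rose, 5 of 6 genes beside 5.84% of all genes. For 4 of them the adjusted P was under 0.05, as for 6.36% of all genes. *Ibsp* rose by 7.34 (SE 0.27, 162-fold, adjusted P = 0.000179), *Dmp1* by 4.93 (SE 0.99, adjusted P = 0.0418), *Sp7* by 4.81 (SE 0.68, adjusted P = 0.0158) and *Ifitm5* by 4.44 (SE 0.28, adjusted P = 0.00137). *Spp1* rose by 5.02 with an SE of 1.46 and an adjusted P of 0.0942. Without hypertrophic replicate 1 the difference was 6.82 for *Spp1* (SE 0.33, adjusted P = 0.000566, range over all alternatives 0.000566 to 0.268) and 6.14 for *Dmp1* (SE 0.28, adjusted P = 0.000499, range 0.000499 to 0.147). It was 7.56 for *Ibsp*, 4.83 for *Sp7* and 4.38 for *Ifitm5*, and these 3 also kept an adjusted P under 0.05.

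**Figure D2:**
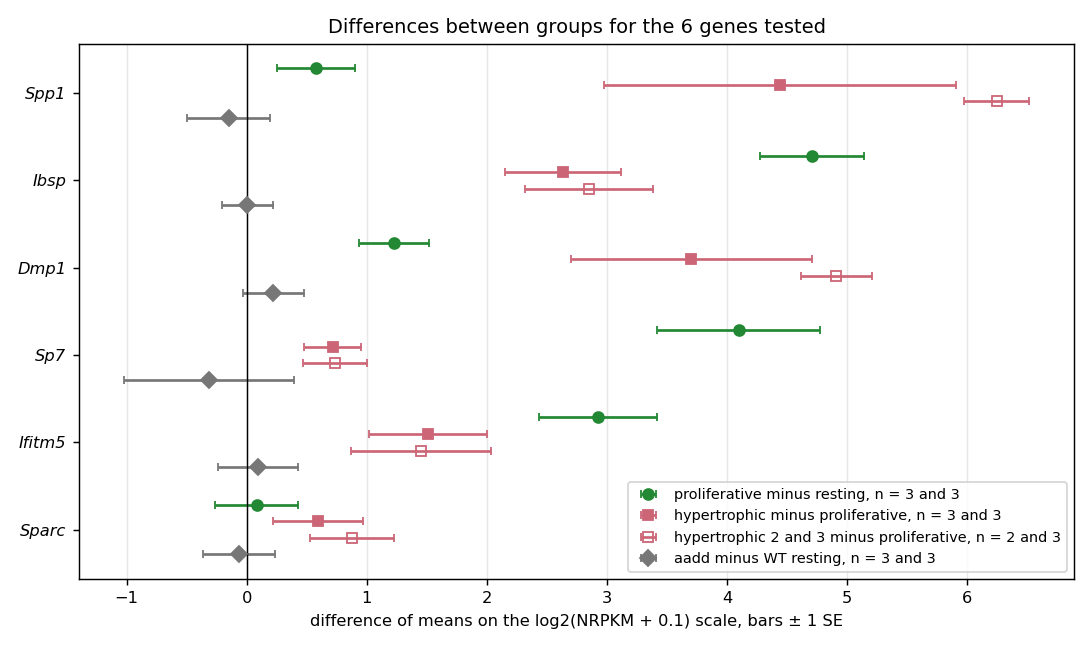
Differences of group means on the log2(NRPKM + 0.1) scale for the 6 genes tested, with bars of 1 SE. *Ibsp*, *Sp7* and *Ifitm5* differ most between proliferative and resting libraries, *Spp1* and *Dmp1* between hypertrophic and proliferative libraries, and the *aadd* differences lie between -0.31 and 0.22.

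In *aadd*, *Ibsp* was at 4.96, 7.57 and 5.61 NRPKM, *Sp7* at 2.55, 6.07 and 3.03 and *Ifitm5* at 8.27, 16.7 and 9.07. *Spp1* was at 6.08, 11.8 and 7.39, *Dmp1* at 2.60, 2.80 and 1.91, and *Mepe* at 0, 0 and 0.336. For each of these genes the *aadd* libraries overlapped with the WT resting libraries. Overlap was common, since 15.4% of all genes tested had none between these groups. Against WT resting tissue, where a fold change of 1.5 was required, 0 of the 6 genes passed in limma's comparison, beside 6.56% of all genes. None had an unadjusted P of 0.05 or less, and none an adjusted P under 0.05 (0.119% of all genes). The 95% interval of the difference ran from -0.51 to 0.52 for *Ibsp*, from -0.97 to 0.66 for *Spp1* and from -0.38 to 0.82 for *Dmp1* on the log2 scale. For *Sp7*, whose resting libraries were most spread, it ran from -1.98 to 1.35, so a difference of 2-fold in either direction is not excluded by these data.

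Against the proliferative compartment, 4 of the 6 genes were lower in *aadd*, beside 3.1% of all genes. *Ibsp* fell by 4.70 (SE 0.44, adjusted P = 0.00439), *Sp7* fell by 4.41 (SE 0.35, adjusted P = 0.00204) and *Ifitm5* fell by 2.83 (SE 0.51, adjusted P = 0.0396), the 3 with an adjusted P under 0.05 (3% of all genes). *Dmp1* fell by 1.01 (SE 0.27, unadjusted P = 0.00744, adjusted P = 0.103), and missed the fold change with a pseudocount of 1. With all 12 libraries in one fit, the limma adjusted P of *Dmp1* was 0.558. *Spp1* differed by -0.73 (SE 0.31, unadjusted P = 0.0548). Against the hypertrophic compartment, 5 genes were lower, beside 5.93% of all genes, and 4 had an adjusted P under 0.05, beside 7.64% of all genes. *Ibsp* fell by 7.33 (SE 0.29), *Sp7* fell by 5.12 (SE 0.35), *Dmp1* fell by 4.71 (SE 0.97) and *Ifitm5* fell by 4.35 (SE 0.33). *Spp1* fell by 5.17 with an SE of 1.44 and an adjusted P of 0.0835. Without hypertrophic replicate 1, *Spp1* fell by 6.97 (adjusted P = 0.000149, range over all alternatives 0.000149 to 0.240) and *Dmp1* fell by 5.92 (adjusted P = 0.000130, range 0.000130 to 0.135). *Ibsp* then fell by 7.55, *Sp7* fell by 5.15 and *Ifitm5* fell by 4.29. In that fit *Sparc* also passed, lower in *aadd* (log2 difference -1.02, adjusted P = 0.0431, range over all alternatives 0.0431 to 0.519). The comparisons of *aadd* with the 3 WT compartments share the *aadd* libraries.

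In mouse the genes of the small integrin-binding ligand, N-linked glycoproteins lie side by side on chromosome 5, all on the plus strand. In GRCm38 coordinates *Dspp* (dentin sialophosphoprotein), *Dmp1*, *Ibsp*, *Mepe* and *Spp1* follow each other from 104170712 to 104441053, over 270 kb. *Dspp*, a gene of teeth, held at most 1.13 NRPKM in any library and did not follow its neighbours. *Pkd2*, which flanks the cluster beyond *Spp1* and encodes an ion channel, had group means from 24.3 to 41.4 NRPKM. *Sparcl1*, on the other side before *Dspp*, had means of 18.0, 19.0 and 27.1 NRPKM in resting, proliferative and hypertrophic tissue. Its mean in *aadd* was lower, at 4.23 NRPKM. Position in the cluster did not order the patterns, since *Ibsp* lies between *Dmp1* and *Mepe*. *Sp7* is on chromosome 15, *Sparc* on 11, *Ifitm5* on 7, and *Bglap* and *Bglap2* on 3, all on the minus strand.

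The promoters of the 3 genes that were low in hypertrophic replicate 1 are shown beside that of *Ibsp*, which was not, and that of *Sparc*, which did not pass. Each runs from 250 bases before the transcript start to 50 bases after it, from RefSeq on GRCm38.p6. Of the 9 genes, 7 had a promoter there whose start lay within 10 bases of the start of the gene's row, and none was given for *Sp7* and *Bglap2*. Capitals mark ACCACA, the core that Runx factors bind, GGAAGT, an ETS-type core, ATTGG, the CCAAT box read backwards, and TTTAAA, each on either strand. These motifs were picked after the sequences had been read.
Spp1, chr5:104434861-104435160, plus strand: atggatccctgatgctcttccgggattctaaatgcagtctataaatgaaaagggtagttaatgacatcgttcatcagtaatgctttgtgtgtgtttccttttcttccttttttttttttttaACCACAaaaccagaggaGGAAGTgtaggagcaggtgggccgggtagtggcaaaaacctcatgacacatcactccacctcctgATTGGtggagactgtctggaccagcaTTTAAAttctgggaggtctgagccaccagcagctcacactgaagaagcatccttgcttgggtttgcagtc
Dmp1, chr5:104202367-104202666, plus strand: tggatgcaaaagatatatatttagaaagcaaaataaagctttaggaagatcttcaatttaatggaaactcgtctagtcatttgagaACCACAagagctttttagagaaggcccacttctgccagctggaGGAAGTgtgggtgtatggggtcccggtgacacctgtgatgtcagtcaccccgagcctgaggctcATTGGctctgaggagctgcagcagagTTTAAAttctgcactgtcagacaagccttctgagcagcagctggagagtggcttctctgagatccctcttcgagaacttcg
Mepe, chr5:104325079-104325378, plus strand: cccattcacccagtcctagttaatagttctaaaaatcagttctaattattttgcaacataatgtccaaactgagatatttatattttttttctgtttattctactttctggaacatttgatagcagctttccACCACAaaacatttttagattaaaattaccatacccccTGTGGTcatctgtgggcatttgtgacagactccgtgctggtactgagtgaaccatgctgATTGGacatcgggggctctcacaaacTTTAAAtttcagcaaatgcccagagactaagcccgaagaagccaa
Ibsp, chr5:104299037-104299336, plus strand: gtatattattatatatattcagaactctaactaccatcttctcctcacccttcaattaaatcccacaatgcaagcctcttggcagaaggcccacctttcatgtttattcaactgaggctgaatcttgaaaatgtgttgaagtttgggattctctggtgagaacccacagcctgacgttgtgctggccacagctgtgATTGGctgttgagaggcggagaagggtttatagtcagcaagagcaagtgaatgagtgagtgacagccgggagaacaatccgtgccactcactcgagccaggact
Sparc, chr11:55420031-55420330, minus strand: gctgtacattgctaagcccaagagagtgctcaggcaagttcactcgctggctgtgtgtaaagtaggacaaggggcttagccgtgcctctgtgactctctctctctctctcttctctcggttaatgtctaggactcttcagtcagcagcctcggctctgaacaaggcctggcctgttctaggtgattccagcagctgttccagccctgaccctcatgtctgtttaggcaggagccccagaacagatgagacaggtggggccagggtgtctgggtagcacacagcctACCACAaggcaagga

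With the first transcribed base as position 0, *Spp1* held ACCACA at -128, GGAAGT at -111 and TTTAAA at -20. *Dmp1* held the same motifs in the same order, at -164, -121 and -31, and *Mepe* held ACCACA at -118, its reverse complement at -80, and TTTAAA at 5. *Ibsp* held none of these 3, and *Sparc* only ACCACA, at 35, downstream of the start. ACCACA was not particular to the genes low in replicate 1. *Bglap*, whose level in replicate 1 was 50.7% of the mean of replicates 2 and 3, held it at -132, and *Ifitm5* held none of the motifs. ATTGG was at -46 in *Spp1*, -57 in *Dmp1*, -21 in *Mepe* and -54 in *Ibsp*, on the reverse strand at -90 in *Bglap*, and not in *Sparc*. TATAAA, also searched and not marked above, was at -27 in *Bglap* and -211 in *Spp1*, and on the reverse strand at -28 in *Ibsp* and -173 in *Mepe*. Among all 32851 RefSeq promoters of this length, 16.8% held ACCACA, 23.8% GGAAGT, 37.4% ATTGG, 13.2% TTTAAA and 13.6% TATAAA. The longest word common to *Spp1* and *Dmp1* was GGAGGAAGTGT, which 0.149% of all promoters held, and that common to *Spp1* and *Mepe* was ACCACAAAAC, which 0.0731% held. *Dmp1* and *Ibsp* shared AGAAGGCCCAC (0.0213%). Each word was found by searching its pair, so its share does not say how rare a match of that length is. Over all pairs of the available promoters the longest shared word had 7 to 11 bases. All of these are matches of letters, and binding was not measured.

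Genes with similar profiles were sought over the 12 libraries, by the root mean square difference between log2 values centred on each gene's mean. The gene nearest to *Ibsp* was *Alpl*, the alkaline phosphatase that frees phosphate for mineral (difference 0.640). The nearest to *Sp7* was the homeobox gene *Dlx3* (0.786). *Spp1* and *Dmp1* were nearest to each other (0.647). After *Dmp1*, *Spp1* was followed by the collagenase gene *Mmp13* (0.648), the gelatinase gene *Mmp9* (0.711) and *Atp6v0d2* (0.775), a subunit of the proton pump of osteoclasts. For *Dmp1* the list also held *Phex* (0.730), an endopeptidase of osteocytes. The differences are descriptions of 12 libraries that share compartments.

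Gene lists were then counted in the same comparisons. The 14 lists share 10 genes, each held by a pair of lists, so they are not separate evidence. Of 7 osteoblast transcription factors (*Runx2*, *Dlx3*, *Dlx5*, *Dlx6*, *Atf4*, *Msx2* and *Cbfb*), 5 rose from resting to proliferative tissue and 0 fell. The shares of all genes were 2.56% and 2.97%. The median was 1.43 on the log2 scale against -0.06 for all genes tested. Of the 7, 1, *Msx2*, had an adjusted P under 0.05, beside 0.622% of all genes. From resting to hypertrophic tissue 4 rose, beside 5.84% of all genes, and 4 also without hypertrophic replicate 1, beside 9.42%. *Atf4* and *Cbfb* passed in neither comparison. *Msx2* was at 3.44, 3.04 and 2.89 NRPKM in resting, 9.19, 7.50 and 8.33 in proliferative and 5.51, 4.29 and 3.11 in hypertrophic libraries, and did not pass from resting to hypertrophic tissue. *Runx2*, the factor upstream of *Sp7*, was at 41.1, 27.7 and 23.2 NRPKM in resting, 92.8, 69.2 and 80.6 in proliferative and 135, 102 and 115 in hypertrophic libraries. The summed level of the 7 factors was 441 NRPKM in hypertrophic replicate 1, against 412 and 405 in replicates 2 and 3. In *aadd*, 0 of the 7 were higher than in WT resting tissue by limma's unadjusted P, beside 3.78% of all genes. Only 1 was lower, beside 2.78% of all genes. This was *Dlx3*, which fell by 1.99 on the log2 scale (SE 0.61, adjusted P = 0.361).

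Of 8 genes of mineral formation, 4 rose and 0 fell from resting to proliferative tissue, beside 2.56% and 2.97% of all genes. The median of 2.12 lies between the 4 that rose and the 4 that did not pass. *Alpl* rose by 5.37 (SE 0.57, adjusted P = 0.0226), *Smpd3*, a sphingomyelinase needed for bone mineral, by 4.75 (SE 0.31, adjusted P = 0.00787) and *Panx3*, a channel protein of cartilage and bone, by 4.61 (SE 0.49, adjusted P = 0.0226). *Phospho1*, a phosphatase of matrix vesicles, was at 0 in all resting libraries and at 0.689, 11.3 and 8.73 NRPKM in proliferative libraries. The 4 that did not pass had differences of -0.58 for *Ank* and -0.48 for *Enpp1*, which supply pyrophosphate, and of -0.37 for *Slc20a1* and -0.48 for *Slc20a2*, which carry phosphate into cells. In hypertrophic libraries *Alpl* was at 121, 122 and 162 NRPKM, with replicate 1 beside replicate 2, while *Ank* was at 3.65, 51.6 and 54.8. From proliferative to hypertrophic tissue 1 of the 8 rose, beside 5.32% of all genes, and 2 did without hypertrophic replicate 1, beside 9.79%. Of the osteocyte and phosphate genes, *Phex* was at 27.2, 52.4 and 88.6 NRPKM in the hypertrophic libraries. *Fam20c*, the kinase that phosphorylates the small integrin-binding ligand, N-linked glycoproteins, was at 4.12, 37.2 and 54.1 there. *Phex*, the 1 of 3 such genes tested that passed, rose by 3.21 (SE 0.44) and *Fam20c* differed by 1.73 (SE 0.95, unadjusted P = 0.117) between proliferative and hypertrophic tissue. Without hypertrophic replicate 1 all 3 such genes tested rose, beside 9.79% of all genes. *Phex* and *Fam20c* reached the minimum level only with hypertrophic libraries counted, so their rise was nearly fixed by the filter. Like *Spp1* and *Dmp1*, *Fam20c* was far lower in hypertrophic replicate 1 than in replicates 2 and 3. Its level in replicate 1 lay below the proliferative libraries (4.31, 7.88 and 6.47 NRPKM), whereas those of *Spp1* and *Dmp1* lay above them. *Sost* and *Fgf23*, which mark mature osteocytes, reached at most 8.78 and 0.230 NRPKM.

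Collagen I, the main protein of bone, was intermediate. *Col1a1* was at 142, 355 and 227 NRPKM in resting, 202, 211 and 557 in proliferative, 360, 723 and 1187 in hypertrophic and 102, 371 and 127 in *aadd* libraries. The ranges of neighbouring compartments overlapped, and *Col1a1* passed only between resting and hypertrophic tissue among the WT comparisons (log2 difference 1.58, SE 0.52, adjusted P = 0.119). Of 10 bone matrix and surface genes tested, 3 rose and 0 fell from proliferative to hypertrophic tissue, beside 5.32% and 4.34% of all genes. Without hypertrophic replicate 1, 6 rose, beside 9.79% of all genes (18.4% passed in either direction). These shares also stand beside the counts of receptors and enzymes that follow. Among receptors of RGD proteins, *Itgav* was at 18.8, 76.5 and 68.2 NRPKM in hypertrophic libraries, *Itgb3* at 2.08, 91.9 and 80.3 and *Cd44* at 6.60, 48.5 and 42.5. The alpha-v and beta-3 integrin chains form the osteopontin receptor of osteoclasts, and both were low in replicate 1. Of 8 receptors tested, 2 (*Itgav* and *Cd44*) rose and 0 fell from proliferative to hypertrophic tissue, with no adjusted P under 0.05, and *Itgb3* was not tested. Of 9 proteases and modifying enzymes tested, 2 rose and 0 fell, and 4 rose and 1 fell without hypertrophic replicate 1. Among those that rose with all libraries was *Mmp9*, at 10.3, 422 and 378 NRPKM in the hypertrophic libraries. It reached the minimum level only with those libraries counted, so its rise was nearly fixed by the filter.

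Hypertrophic replicate 1 held 2.33% of the mean level of replicates 2 and 3 for *Spp1*, 4.65% for *Mepe* and 7.98% for *Dmp1*. For *Ibsp* the share was 62.4%, for *Sp7* 94.4% and for *Ifitm5* 111%. *Sparc* stood between, at 54.3%. Relative to the proliferative mean, replicate 1 held 1.74 times the level of *Spp1*, 2.40 times that of *Dmp1*, and 4.06 times that of *Ibsp*.

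**Figure D3:**
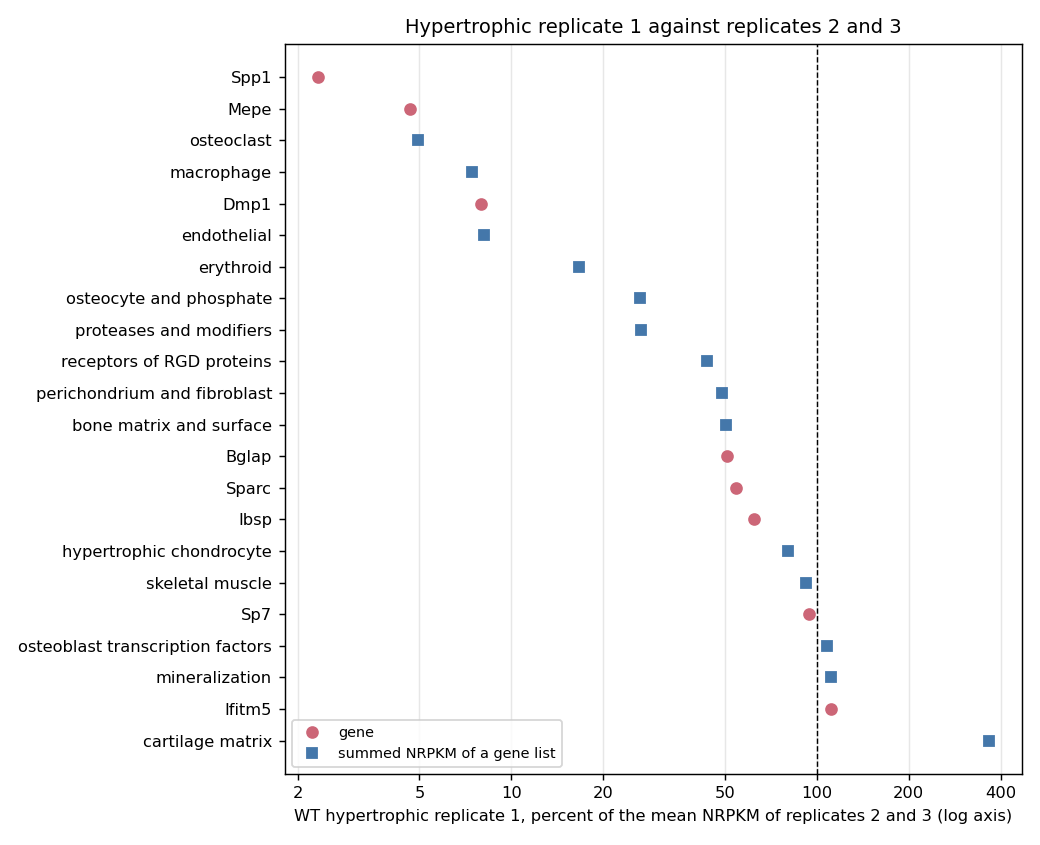
Level in WT hypertrophic replicate 1 as a percent of the mean of replicates 2 and 3, on a log axis, for 8 genes (circles) and for the summed NRPKM of 14 gene lists (squares). *Spp1*, *Mepe* and *Dmp1* lie between 2.33% and 7.98%, next to the osteoclast, macrophage and endothelial lists, and *Sp7* and *Ifitm5* lie near 100% with the osteoblast transcription factors. *Bglap2* was at 0 in replicate 1 and is left out.

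Summed markers of cells that enter the hypertrophic zone moved with *Spp1*, *Dmp1* and *Mepe*. The summed level of 10 osteoclast genes was 1379 and 1023 NRPKM in hypertrophic replicates 2 and 3 and 59.3 in replicate 1. It was 50.9 to 69.4 in resting, 37.9 to 57.9 in proliferative and 38.0 to 59.0 in *aadd* libraries. This list includes *Mmp9* and *Itgb3*, described above, and its other 8 genes summed to 46.9, 865 and 565 NRPKM in hypertrophic replicates 1, 2 and 3. *Acp5*, the acid phosphatase of osteoclasts, was at 2.92, 246 and 200 NRPKM in hypertrophic replicates 1, 2 and 3, and *Calcr* and *Oscar* were at 0 in replicate 1. *Ocstamp* and *Dcstamp*, needed for osteoclast fusion, were at 0 in all *aadd* libraries.

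The sum of 10 macrophage genes was 36.0, 539 and 432 NRPKM in the hypertrophic libraries, against 17.4 to 21.9 in resting, 29.8 to 45.6 in proliferative and 19.5 to 67.2 in *aadd* libraries. Within this list *Lyz2* and *C1qa* were at 0 in hypertrophic replicate 1, and *C1qa* was near 0 throughout. *Cd68*, *Tyrobp*, *Fcer1g* and *Csf1r* made up most of the sum in replicates 2 and 3. *Cx3cr1*, at 2.76, 2.65 and 1.98 NRPKM, lay below its proliferative range of 3.28 to 3.83, and *Mrc1*, *C1qb* and *C1qc* reached at most 6.10 NRPKM in the hypertrophic libraries. The sum of 10 endothelial genes was 20.8, 303 and 210 NRPKM, against 4.83 to 12.6 in resting, 7.13 to 13.9 in proliferative and 5.02 to 40.6 in *aadd* libraries. Cartilage matrix went the other way. Its 10 genes summed to 3005 NRPKM in replicate 1 and to 677 and 965 in replicates 2 and 3. From proliferative to hypertrophic tissue, 3 of 4 osteoclast, 2 of 4 macrophage and 3 of 3 endothelial genes tested rose, beside 5.32% of all genes. Of 10 cartilage matrix genes 9 fell, beside 4.34% of all genes. None of these genes had an adjusted P under 0.05 in limma's comparison. Without hypertrophic replicate 1 the counts were 3, 3 and 3 risen and 10 fallen, where 18.4% of all genes passed in either direction. Many of the osteoclast and macrophage genes tested, and all 3 endothelial genes, reached the minimum level only with hypertrophic libraries counted. A rise was thus nearly fixed by the filter, and these counts are descriptions only. The part of these cells in the levels of *Spp1*, *Dmp1*, *Mepe* and *Bglap2* was not tested.

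*Ibsp*, *Sp7* and *Ifitm5* were high where those sums were far below hypertrophic replicates 2 and 3. In the proliferative libraries the osteoclast, macrophage and endothelial sums lay at most at 57.9, 45.6 and 13.9 NRPKM, while *Ibsp* was at 82.2 to 278. The macrophage sum was nevertheless above its resting range of 17.4 to 21.9 NRPKM in every proliferative library. Of 4 macrophage genes tested, *Tyrobp* (log2 difference 3.15, adjusted P = 0.144) and *Fcer1g* (3.01, adjusted P = 0.232) rose from resting to proliferative tissue together with *Ibsp*, *Sp7* and *Ifitm5*, from group means of 0.372 and 0.772 to 5.25 and 4.55 NRPKM. Of 4 osteoclast and 3 endothelial genes tested, 0 passed in this comparison. Among all genes tested, 2.56% rose and 2.97% fell. The means of *Atp6v0d2* and the 3 endothelial genes lay under 5 NRPKM in both groups. In hypertrophic replicate 1 *Ibsp*, *Sp7* and *Ifitm5* were above every proliferative library, with the same sums at 59.3, 36.0 and 20.8. Skeletal muscle genes summed to 21.9, 21.6 and 25.7 NRPKM in the hypertrophic libraries and erythroid genes to 65.8, 374 and 412, and of 3 genes tested in each list 0 passed from resting to proliferative tissue. The sums of perichondrium and fibroblast genes were 725 to 1576 NRPKM in proliferative and 608 to 1034 in resting libraries, which overlap. Of 10 such genes tested, 0 passed between these groups in limma's comparison, although *Lum* and *Pdgfra* had an unadjusted P under 0.05. The part of these cells in the rise of *Ibsp*, *Sp7* and *Ifitm5* was not tested.

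**Figure D4:**
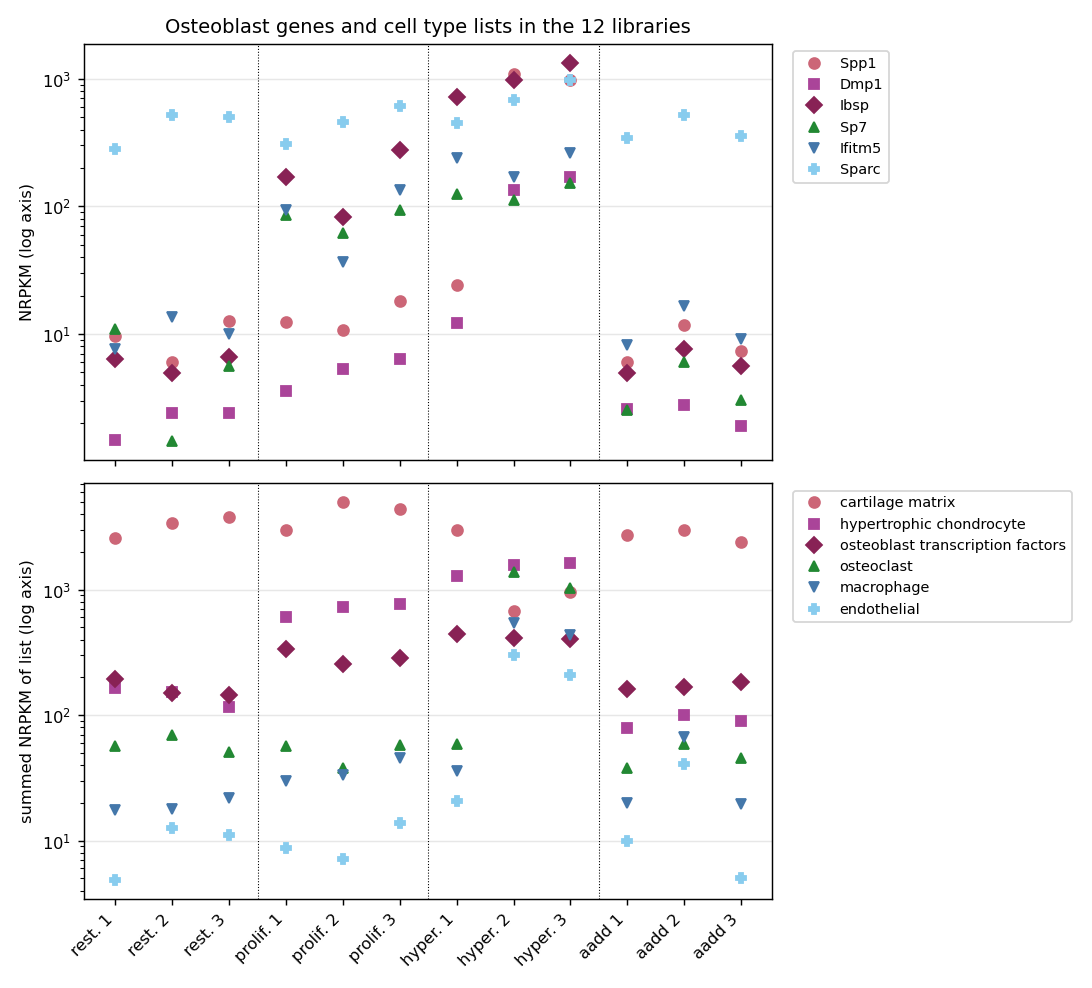
Above, level of 6 genes in each of the 12 libraries in NRPKM, and below, summed NRPKM of 6 gene lists, both on log axes with dotted lines between the groups. *Spp1* and *Dmp1* stand high in the same libraries as the osteoclast, macrophage and endothelial sums, hypertrophic replicates 2 and 3, where the cartilage matrix sum is lowest.

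Markers of hypertrophic chondrocytes were present in all 3 hypertrophic libraries, in unequal amounts. The summed level of 10 hypertrophic chondrocyte genes was 1282, 1557 and 1629 NRPKM in hypertrophic replicates 1, 2 and 3, against 607 to 771 in proliferative, 116 to 164 in resting and 78.4 to 99.4 in *aadd* libraries. *Runx2*, *Alpl*, *Panx3*, *Pth1r* and *Mmp13* of this list also stand in lists above. Without *Mmp13*, a choice made after the values were seen, the sums were 1279, 823 and 968 NRPKM in hypertrophic and 603 to 765 in proliferative libraries. *Ihh*, a signal of early hypertrophic chondrocytes, was at 56.3, 9.54 and 15.3 NRPKM in hypertrophic libraries, and *Runx3* at 70.6, 14.2 and 18.1, both highest in replicate 1. *Col10a1*, the collagen of hypertrophic chondrocytes, was at 264, 166 and 221 NRPKM in the hypertrophic libraries, highest in replicate 1. It was at 43.5, 98.9 and 111 in proliferative libraries, where *Ibsp*, *Sp7* and *Ifitm5* were also high. The part of hypertrophic chondrocytes in the proliferative levels of those 3 genes was not tested. *Mmp13*, a late hypertrophic and osteoblast gene, was at 3.05, 735 and 661 NRPKM, and split like *Spp1*. Of the 10 genes of this list, 8 rose from resting to proliferative tissue, beside 2.56% of all genes. From proliferative to hypertrophic tissue 2 rose and 0 fell, beside 5.32% and 4.34% of all genes. Without hypertrophic replicate 1, 3 rose and 2 fell, where 18.4% of all genes passed in either direction. In *aadd* 3 fell and 0 rose relative to WT resting tissue, beside 2.78% and 3.78% of all genes. With a replicate block 2 fell and 1 rose. None of the 6 tested bone genes passed between *aadd* and WT resting tissue. In that comparison 2 of 8 genes of mineral formation fell and 0 rose. Of 10 bone matrix and surface genes tested 1 rose and 1 fell, and of 10 perichondrium and fibroblast genes 2 rose and 0 fell. No gene of these lists, or of the hypertrophic chondrocyte list, had an adjusted P under 0.05 there in limma's comparison.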

How the data were processed

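RNA-Seq was performed by the authors on 12 libraries of laser-captured tissue from E15.5 forelimb zeugopods, 3 per group, amplified with the NuGen Ovation system. Reads were aligned to mm10 with TopHat per the labels (version not given in the sources used here), and per the study's methods duplicate reads and reads aligning to several positions were removed and values made in GeneSpring. The deposited values are RPKM normalised by the authors (NRPKM), and how they were normalised between libraries is not given in the sources used here. No counts were used, so the main test was limma (3.58.1, R 4.3.3) on log2(NRPKM + 0.1), a scale that understates changes of low genes, over the 10936 of 36186 genes that reached 5 NRPKM in 3 or more libraries. P values were adjusted by the Benjamini-Hochberg method over those genes. Depth was read from the commonest value of 1658 rows of rarely expressed single-exon genes. Reads were then NRPKM times exon length divided by the value of 1 read, and 11 of 15 low values of the 9 genes came out within 0.1 of a whole read. Intervals cover counting error only.

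Groups followed the labels. The 9 genes, the 14 gene lists and the tests were chosen with earlier results of these data known. From each list, up to 4 genes with the highest level or the largest difference between hypertrophic and resting tissue were named, others named were chosen after their values were seen, and for 5 genes the 5 nearest profiles were taken. One gene of these lists and profiles is not reported here. Replicate numbers in the labels paired resting with proliferative libraries, whose deviations from group means correlated at 0.28, 0.18 and 0.20, and paired no other groups. Alternatives were other pseudocounts, filters, scalings, variance models, a replicate block, a fit of all 12 libraries and leaving out each library. The code was tested on simulated data. No paired or set statistic over the 9 genes was computed.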

Additional observations from a re-analysis of the deposited data

How the results depend on the processing

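The number of genes passing stayed within 1.5 times its value in 100 alternatives. In 2, without proliferative replicate 2 or hypertrophic replicate 3, it fell to 2 from proliferative to hypertrophic tissue (2 to 4 with each library left out in turn). The replicate block changed no call of the 6 genes at the unadjusted threshold. With it, the limma adjusted P passed 0.05 for *Dmp1* between hypertrophic and resting tissue (0.0595, range over alternatives 0.000499 to 0.147) and for *Ifitm5* between *aadd* and proliferative tissue (0.113, range 0.00875 to 0.155), groups that the numbers did not pair. Under the block *Ibsp* differed by 4.70 from resting to proliferative tissue, as without it (limma adjusted P = 0.0499, range over alternatives 0.000864 to 0.0762). In that comparison the blocked limma adjusted P was 0.0754 for *Sp7* (range 0.0118 to 0.205). It was 0.121 for *Ifitm5* (range 0.0179 to 0.236) and 0.0822 for *Dmp1* (range 0.0822 to 0.484). Of the single differences, 467 kept direction and call. The sign turned in 19, for differences that did not pass. With quantile normalization *Sparc* was at -0.0683 from resting to proliferative tissue, at 0.0253 between *aadd* and resting and at 0.0936 between *aadd* and proliferative tissue, and with median of ratios scaling *Ibsp* was at -0.0158 between *aadd* and resting tissue. With each library left out in turn, *Sparc* ranged from -0.204 to 0.340 from resting to proliferative and from -0.406 to 0.0850 between *aadd* and proliferative tissue. Between *aadd* and resting tissue the ranges were -0.435 to 0.0860 for *Spp1*, -0.165 to 0.135 for *Ibsp*, -0.00342 to 0.382 for *Dmp1*, -1.10 to 0.312 for *Sp7*, -0.223 to 0.302 for *Ifitm5* and -0.353 to 0.0864 for *Sparc*. The cause was not tested. The median of all genes moved past 0.1 in size only without proliferative replicate 1 (-0.10 and 0.10). Depth limits *Mepe*, *Bglap* and *Bglap2*, where 3 reads, the limit that a count of 0 allows, are worth at least 0.551, 1.499 and 1.97 NRPKM in the deepest library.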
